A study of Mus musculus with 12 samples.

Results

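The suppressor of cytokine signalling (SOCS) family was followed in macrophages with and without the Pim1 kinase, before and after lipopolysaccharide (LPS). Its 8 genes, Socs1, Socs2, Socs3, Socs4, Socs5, Socs6, Socs7 and Cish, were taken by symbol from a table of 23997 gene symbols, and all 8 were found. Of them, 7 reached 1 FPKM (fragments per kilobase of transcript, scaled to the library's size) in at least 3 of 12 libraries and were tested. Socs2 did not, and it is described by its values. Socs1 and Cish reached that level only in the LPS-treated libraries, so that a rise with LPS was built into their passing the filter.

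The libraries held polyadenylated RNA of bone marrow-derived macrophages from C57BL/6 mice, either wild type (WT) or Pim1-/-. Marrow came from male mice aged 8 to 10 weeks, and its non-adherent cells were grown for 7 days in recombinant human M-CSF at 10 ng/ml, in both genotypes. The Pim1-/- allele was made in mice by CRISPR/Cas9 deletion of exons I to V, so the marrow cells also differentiated with the deletion. Each genotype was left untreated or given LPS, the bacterial ligand of TLR4, at 100 ng/ml for 4 h, with 3 libraries in each of 4 groups. The labels do not say whether the 3 libraries came from separate mice or cultures, so p-values measure the spread between libraries, which may be technical.

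SOCS proteins are feedback inhibitors of the JAK-STAT pathway. A cytokine receptor activates Janus kinases, the kinases phosphorylate STAT factors, and STATs then switch on SOCS genes. Each SOCS protein carries an SH2 domain, which docks on phosphotyrosine of a receptor or kinase, and a SOCS box, which recruits elongins B and C and a cullin to form a ubiquitin ligase. SOCS1 and SOCS3 also carry a kinase inhibitory region that blocks JAKs directly. In macrophages, SOCS1 is known for restraining interferon signalling and SOCS3 for restraining signals through the gp130 and G-CSF receptors, while CIS, the product of Cish, and SOCS2 are best known at receptors that use STAT5.

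Pim1 itself measured 22.9 ± 1.80 FPKM (SD, n = 3) in untreated WT and 8.73 ± 0.752 in untreated Pim1-/- libraries, and 645.4 ± 17.8 and 218.9 ± 15.6 after LPS. The remaining Pim1 signal thus stood at 38.1% and 33.9% of WT, with no overlap between genotypes at either time, and gene-level values do not show where in the gene it lay. Replicate libraries correlated at r = 0.9977 to 0.9989 across genes, and the median coefficient of variation among genes at 10 FPKM or more was 3.03% to 5.12% by group. In a transcript of 2000 nt, 1 fragment was worth an estimated 0.0122 to 0.0149 FPKM in untreated and 0.0174 to 0.0266 in LPS libraries. This estimate came from the steps between low values, of which 76.4% lay within 0.1 of a whole fragment. Summed over 10 macrophage markers, FPKM ranged from 27946 to 29997 in untreated WT and from 14412 to 15331 in untreated Pim1-/- libraries, and from 30856 to 31355 and 15948 to 17813 after LPS. Lyz2, a lysozyme gene singled out after its values were seen, gave 79.0% to 91.7% of these sums. Over the other 9 markers the sums were 2504 to 2587 and 1529 to 1680 untreated, and 4338 to 4439 and 3217 to 3343 after LPS, so that Pim1-/- cells held 62.9% of the WT mean untreated and 75.1% after LPS. Over 7 genes of dividing cells, the sums were 18.4 to 21.6 and 336.6 to 349.4 untreated, and 35.8 to 37.5 and 158.6 to 172.8 after LPS. Mki67, also singled out after its values were seen, rose with LPS in WT from 2.90 to 28.6 FPKM. It was at 26.2 in LPS-treated Pim1-/- cells. At a false discovery rate under 0.05 with no fold threshold, 5 of the 7 fell and 2 rose with LPS in WT. Of all 10581 genes, 4705 fell and 4748 rose at that threshold. Past 2-fold, 2 of the 7 were called lower and 1 higher, where 14.7% and 20.1% of all genes were. Markers of other cells (dendritic, neutrophil, lymphoid, mast, erythroid and stromal lists) each summed to at most 8.22 FPKM in any library. Of the macrophage markers 4 of 10 untreated and 3 of 10 after LPS were called lower in Pim1-/- cells, where 3.37% and 5.15% of all 10581 genes were. Of the division genes 7 of 7 and 6 of 7 were called higher, where 466 and 371 of all genes were. Pbk, at 0.154 to 0.891 FPKM in WT libraries, passed the filter only through Pim1-/- libraries, so its calls as higher were favoured by the filter. The part of these markers in the SOCS results was not tested. In such bulk samples, fewer cells of a type and less RNA per cell cannot be told apart.

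The make-up of the family was replaced by LPS. Untreated WT macrophages held 54.2 ± 2.57 FPKM of SOCS mRNA over the 8 genes, of which Socs6 gave 63.4% ± 0.958. After LPS the WT sum was 1340 ± 50.3, of which Socs3 gave 83.5% ± 0.428. In Pim1-/- cells the sum was 32.6 ± 0.583 untreated and 574.4 ± 32.2 after LPS, with Socs6 at 44.1% ± 1.12 and Socs3 at 79.0% ± 0.526. Untreated WT levels fell in the order Socs6, Socs5, Socs3, Socs4, Socs7, Socs1, Socs2 and Cish. Socs3 and Socs4 exchanged places between libraries there, as did Socs2 and Cish. Socs4 was above Socs7 in each of the 3 libraries, although their ranges overlapped. After LPS the order was Socs3, Socs1, Cish and Socs7 in both genotypes, each above the next in all 3 libraries, and Socs2 came last.

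**Figure D1:**
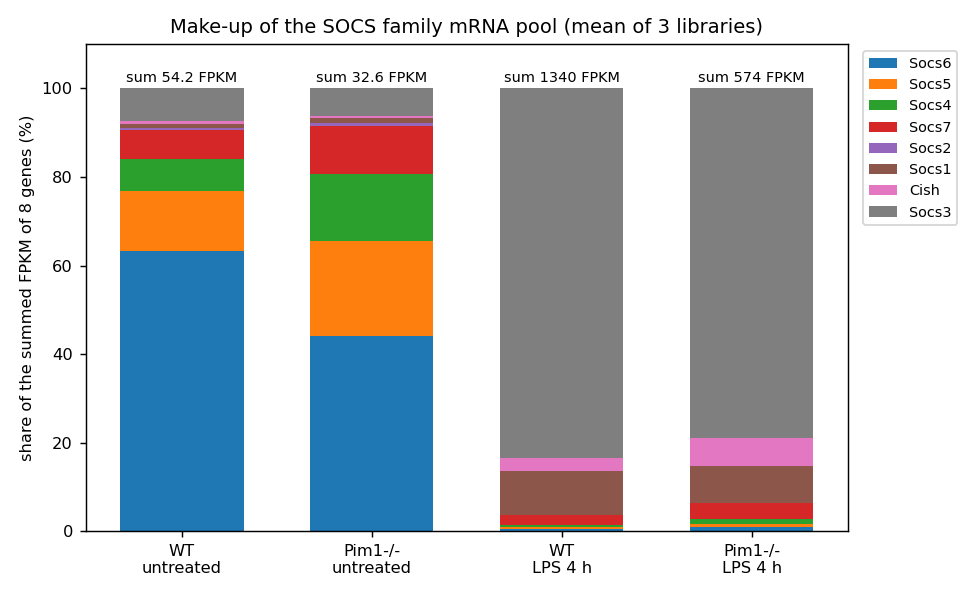
Share of each gene in the summed FPKM of the 8 SOCS genes (vertical axis, percent, mean of 3 libraries) in the 4 groups, with the group's mean sum above each bar. Socs6 is the largest share in both untreated groups, and Socs3 is the largest in both LPS groups at 83.5% and 79.0%.

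Socs1 and Socs3, the genes of the JAK-inhibiting members, rose with LPS in both genotypes and reached lower levels without Pim1. Socs1 measured 0.620, 0.469 and 0.578 FPKM in untreated WT libraries and 0.297, 0.437 and 0.499 in untreated Pim1-/- libraries. After LPS it measured 137, 124 and 140 FPKM in WT and 45.5, 45.9 and 49.8 in Pim1-/- libraries. The untreated genotypes overlapped, whereas after LPS every Pim1-/- library lay far below every WT library. The Pim1-/- mean after LPS was 35.2% of WT, a difference of -1.49 ± 0.07 (SE) in log2(FPKM + 1), adjusted p = 1.5e-11 by limma with Benjamini-Hochberg adjustment over 10581 genes. Untreated, the difference was -0.14 (adjusted p = 0.061), and it passed 0.05 with the replicate number as a block (adjusted p = 0.030). On FPKM means LPS raised Socs1 241-fold in WT and 115-fold in Pim1-/- cells. On the log2(FPKM + 1) scale the responses were 6.44 and 5.09, and they differed by -1.35 ± 0.09 (adjusted p = 8.6e-09), or by -0.96 with quantile normalization.

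Socs3 was the most abundant member after LPS. In untreated libraries it measured 3.25, 4.96 and 3.99 FPKM in WT and 2.03, 1.86 and 2.25 in Pim1-/- cells. After LPS it measured 1164, 1076 and 1116 FPKM in WT and 454, 426 and 481 in Pim1-/- cells. The genotypes did not overlap at either time, with Pim1-/- lower at both. The Pim1-/- mean was 40.6% of WT after LPS, a difference of -1.30 ± 0.09 in log2(FPKM + 1) (adjusted p = 3.3e-09), and 50.4% of WT untreated, a difference of -0.72 ± 0.09 (adjusted p = 3.3e-06) that stayed under 2-fold. LPS raised Socs3 by 7.80 on the log2 scale in WT, rank 32 from the top of 10581 genes, and by 7.22 in Pim1-/- cells, rank 41. The responses differed by -0.58 ± 0.13 (adjusted p = 0.0011). With a pseudocount of 0.1 in place of 1 this difference was -0.36 (adjusted p = 0.056), so the lower level after LPS was called on either scale, while the lower response was not.

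Cish departed from that pair after LPS. It measured 0.229, 0.315 and 0.243 FPKM in untreated WT and 0.166, 0.0633 and 0.0923 in untreated Pim1-/- libraries. After LPS it measured 37.4, 38.5 and 38.5 FPKM in WT and 36.1, 34.4 and 39.6 in Pim1-/- libraries. The LPS groups overlapped, and the untreated groups did not. The difference after LPS was -0.06 ± 0.06 in log2(FPKM + 1), with a 95% interval of -0.18 to 0.07 (adjusted p = 0.38) that did not reach the difference of Socs1 or Socs3. The untreated difference was -0.19 ± 0.06 (adjusted p = 0.0086), and -0.83 with a pseudocount of 0.1. It rested on an estimated 15.3 to 22.6 fragments per library in WT and 4.52 to 13.6 in Pim1-/- cells, counted as for a 2000-nt transcript. LPS raised Cish by 4.96 and 5.09 on the log2(FPKM + 1) scale, and the responses differed by 0.13 (95% interval -0.04 to 0.31, adjusted p = 0.18), or by 0.77 with a pseudocount of 0.1 (adjusted p = 0.0040). Cish overlaps the antisense gene Gm17041 and the pseudogene Gm17040 on the other strand in GENCODE M21. The libraries were stranded, but the sources do not say whether strand was used in counting.

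Ratios taken within a library do not change when all its values are multiplied by 1 factor. Quantile normalization is not of that kind and can change them. The ratio of Cish to Socs1 was 0.274, 0.310 and 0.274 in LPS-treated WT and 0.793, 0.748 and 0.796 in LPS-treated Pim1-/- libraries, 2.72 times as high on average. The ratio of Cish to Socs3 was 0.0322, 0.0358 and 0.0345 against 0.0793, 0.0808 and 0.0824, or 2.37 times as high. Both ratios were higher in every Pim1-/- library (exact two-sided permutation p = 0.1, the smallest that 3 against 3 allows). The ratio of Socs3 to Socs1 was 8.37 ± 0.374 in WT and 9.64 ± 0.365 in Pim1-/- cells after LPS (n = 3 each), again without overlap and at the same exact p.

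**Figure D2:**
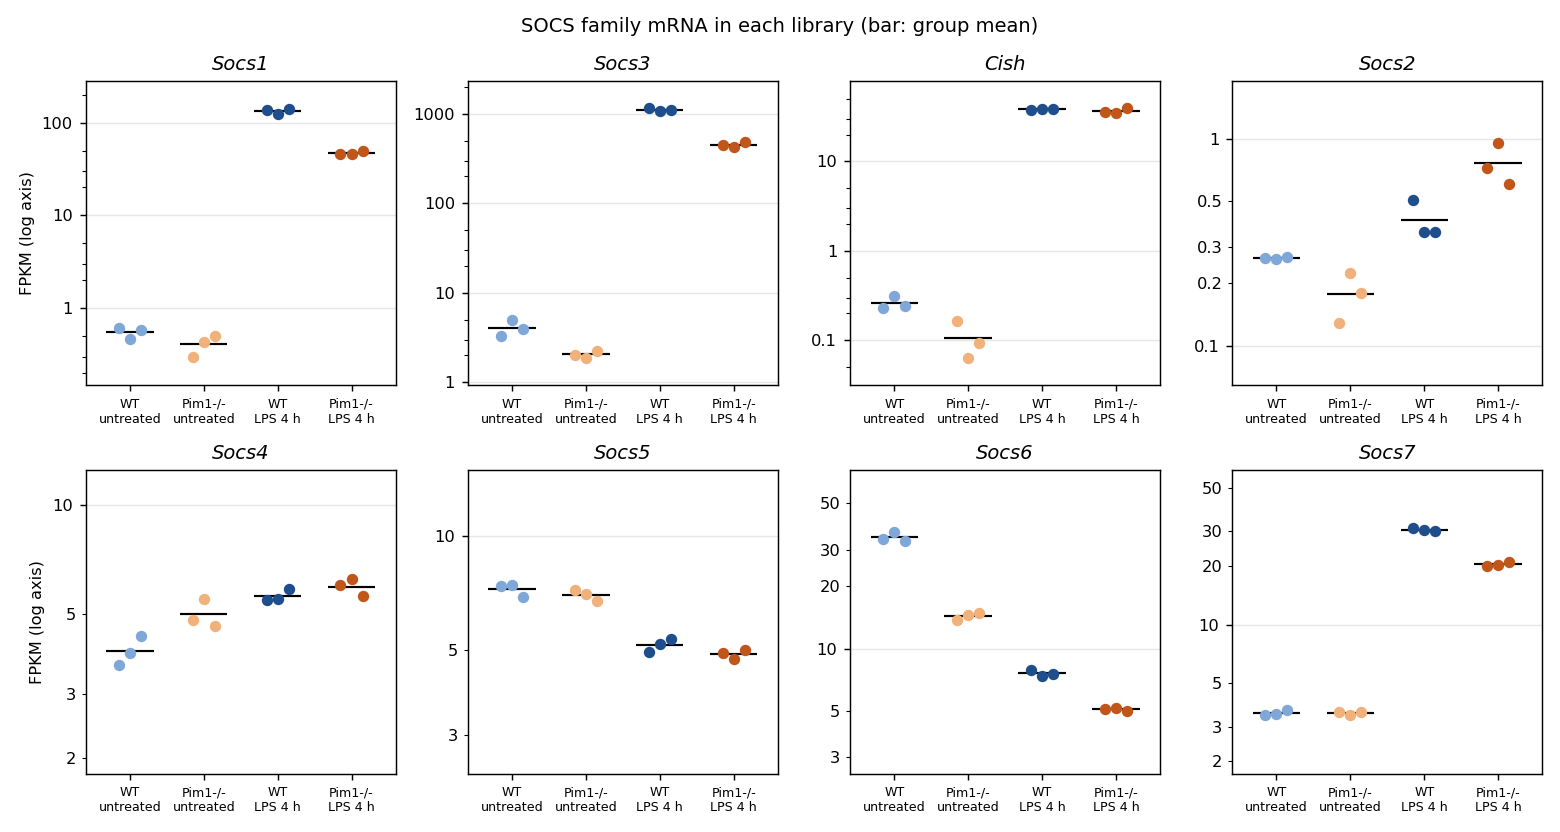
FPKM of each SOCS gene on a log axis in the 12 libraries, with 1 point per library and a bar at the mean of 3. Socs1 and Socs3 are lower in all 3 Pim1-/- libraries than in all 3 WT libraries after LPS, Cish overlaps between genotypes there, and Socs2 stays under 1 FPKM throughout.

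The promoters of these 3 LPS-raised genes are shown because each holds letters of a sequence that STAT complexes are known to bind. The sequences are from RefSeq, build GRCm38.p6, 250 bases before to 50 bases after the annotated start. Capitals mark matches to the gamma-activated sequence (GAS, TTCNNNGAA) or to an interferon-stimulated response element core (GAAA, any 2 bases, then GAAA, or TTTC, any 2 bases, then TTTC on the other strand), both searched on both strands. Socs1 is on the minus strand at chr16:10785487-10785786, Socs3 on the minus strand at chr11:117969317-117969616, and Cish on the plus strand at chr9:107296409-107296708.
Socs1: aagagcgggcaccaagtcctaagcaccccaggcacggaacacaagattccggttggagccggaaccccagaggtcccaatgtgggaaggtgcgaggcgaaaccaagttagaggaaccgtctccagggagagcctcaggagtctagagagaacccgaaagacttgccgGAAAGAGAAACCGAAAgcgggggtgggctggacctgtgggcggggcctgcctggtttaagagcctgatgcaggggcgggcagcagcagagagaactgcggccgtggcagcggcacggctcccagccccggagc
Socs3: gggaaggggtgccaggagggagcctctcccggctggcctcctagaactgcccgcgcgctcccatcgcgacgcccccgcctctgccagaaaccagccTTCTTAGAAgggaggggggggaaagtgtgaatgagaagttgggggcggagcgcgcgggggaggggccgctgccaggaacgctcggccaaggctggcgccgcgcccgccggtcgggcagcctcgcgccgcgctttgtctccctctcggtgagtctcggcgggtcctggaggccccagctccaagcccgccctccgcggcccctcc
Cish: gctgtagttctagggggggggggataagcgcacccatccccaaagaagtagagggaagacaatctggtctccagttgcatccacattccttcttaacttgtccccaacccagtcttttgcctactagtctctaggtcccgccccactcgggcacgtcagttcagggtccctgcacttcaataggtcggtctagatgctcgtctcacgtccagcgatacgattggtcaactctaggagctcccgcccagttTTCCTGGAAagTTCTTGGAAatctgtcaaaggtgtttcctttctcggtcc

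Socs1 held 2 interferon-type matches that overlap each other, GAAAGAGAAA starting at -83 and GAAACCGAAA at -77 from the start site, which counts as +1. Of 32851 RefSeq mouse promoters of this length, 3.44% held at least 1 such match and 0.225% at least 2. Socs3 held 1 GAS match, TTCTTAGAA at -154, and Cish held 2, TTCCTGGAA at +1 and TTCTTGGAA at +12. At least 1 GAS match was found in 8.3% of promoters and at least 2 in 0.457%. None of the 3 windows held a match to the kappaB motif GGGRNNYYCC (R for A or G, Y for C or T), against 5.89% of all promoters. Unlike the other motifs, it was searched only on the strand shown. The result says only that those letters are not in these windows as printed. The Socs4 promoter, searched in the same way, held no match to any of the 3 motifs. A match is a description of sequence, and binding was not measured.

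The RefSeq start of Socs1 is also where its gene begins in the annotation GENCODE M21 (GRCm38). The RefSeq starts of Socs3 and Cish lie 681 and 633 nt downstream of where GENCODE begins those genes, so both windows, with their matches, lie inside the GENCODE gene models. By that annotation, Socs1 spans chr16:10782240-10785536, Socs3 chr11:117966079-117970047 and Cish chr9:107296026-107302784. The coding sequence lies in 1 exon of Socs1, 1 of Socs3 and 3 of Cish, with coding lengths of 636, 675 and 771 nt.

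Socs7 and Socs6 encode larger members with long N-terminal regions, linked in the literature to insulin receptor and growth factor signalling, and they moved in opposite directions with LPS. Socs7 measured 3.45, 3.49 and 3.64 FPKM in untreated WT and 3.58, 3.44 and 3.58 in untreated Pim1-/- libraries. After LPS it measured 31.1, 30.6 and 30.2 in WT and 20.1, 20.1 and 20.8 in Pim1-/- libraries. The untreated groups overlapped, and after LPS every Pim1-/- library lay below every WT library. Untreated, the difference was 0.00 with a 95% interval of -0.09 to 0.09, and after LPS it was -0.57 ± 0.04 (adjusted p = 7.8e-09), which stayed under 2-fold. LPS raised Socs7 by 2.81 in WT and 2.23 in Pim1-/- cells on the log2(FPKM + 1) scale, a difference in response of -0.57 ± 0.06 (adjusted p = 9.1e-07).

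Socs6 was the leading member of untreated cells and fell with LPS. It measured 33.7, 36.3 and 33.0 FPKM in untreated WT and 13.8, 14.6 and 14.8 in untreated Pim1-/- libraries. After LPS it measured 7.86, 7.39 and 7.57 in WT and 5.14, 5.17 and 5.00 in Pim1-/- libraries. All 4 groups were apart from each other. Untreated Pim1-/- cells held 41.9% of the WT level, a difference of -1.20 ± 0.05 in log2(FPKM + 1) (adjusted p = 5.8e-12), and after LPS the difference was -0.50 ± 0.05 (adjusted p = 1.8e-07). Socs6 fell by 2.04 with LPS in WT and by 1.33 in Pim1-/- cells, so the responses differed by 0.70 ± 0.07 (adjusted p = 4.1e-07).

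Socs4 and Socs5, linked in the literature to EGF receptor signalling and, for Socs5, to IL-4 signalling, showed differences under 2-fold in every comparison. Socs4 ranged over 3.62 to 4.34 FPKM in untreated WT, 4.63 to 5.51 in untreated Pim1-/-, 5.48 to 5.86 in LPS-treated WT and 5.60 to 6.27 in LPS-treated Pim1-/- libraries. It was higher in Pim1-/- cells untreated, by 0.28 ± 0.07 (adjusted p = 0.0017), and the difference after LPS was 0.07 (95% interval -0.07 to 0.22, adjusted p = 0.34). Its LPS responses of 0.42 in WT and 0.22 in Pim1-/- cells turned to -0.27 and -0.37 when FPKM were rescaled to a fixed sum per library, so its direction with LPS depended on the scaling. Socs5 ranged over 6.89 to 7.44 and 6.73 to 7.21 FPKM in untreated WT and Pim1-/- libraries, and 4.95 to 5.37 and 4.75 to 5.00 after LPS. It fell with LPS by 0.41 in WT (adjusted p = 9.7e-07) and by 0.44 in Pim1-/- cells (adjusted p = 5.9e-07), or by 1.17 and 1.07 with the fixed sum. Genotype differences of Socs5 were -0.04 untreated and -0.07 after LPS, with a 95% interval of -0.17 to 0.04 for the latter.

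Socs2, whose product is best known for restraining growth hormone signalling, was the only member whose Pim1-/- libraries all read above all WT libraries after LPS. It measured 0.267, 0.263 and 0.269 FPKM in untreated WT and 0.129, 0.225 and 0.179 in untreated Pim1-/- libraries. After LPS it measured 0.506, 0.357 and 0.355 in WT and 0.727, 0.956 and 0.606 in Pim1-/- libraries. The genotypes did not overlap at either time, lower in Pim1-/- untreated and higher after LPS, each at the smallest exact two-sided permutation p of 0.1. With no filter on low values, limma gave a difference after LPS of 0.32 ± 0.07 in log2(FPKM + 1) (adjusted p = 0.0015) and an untreated difference of -0.11 (adjusted p = 0.22). These levels correspond to an estimated 10.6 to 43.3 fragments per library in a 2000-nt transcript, which limits what can be said of Socs2.

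Read across the family, 2 of the 7 tested genes, Socs1 and Socs3, were more than 2-fold lower in Pim1-/- cells after LPS at a false discovery rate under 0.1, where 8.66% of all 10581 genes were called in either direction and 5.15% were called lower. At a false discovery rate under 0.05 with no fold threshold 4 were lower and 0 higher. Over all genes, 4412 of 10581 were lower and 3782 higher at that looser threshold, 77.4% in either direction. Untreated, 1 of 7 was called, Socs6, lower, against 7.78% of all genes called and 3.37% called lower, and at the looser threshold 4 were, against 74.7%. With LPS, 4 of 7 rose (Socs1, Socs3, Socs7 and Cish) and 1 fell (Socs6) in WT, where 34.8% of all genes were called, 20.1% higher and 14.7% lower. The same 5 were called in Pim1-/- cells, where 25% of all genes were called, 14.6% higher and 10.4% lower. The rise of Socs1 and Cish was built in, since they passed the filter only through LPS-treated libraries. The difference in response was called for 1 of 7, Socs1, against 6.67% of all genes called and 4.43% called lower, and at the looser threshold for 4, against 62.9%. Libraries of the genotypes did not overlap for 77.5% of all genes after LPS and for 78.4% untreated, so a lack of overlap is common in these data. The median difference after LPS was -0.50 over the 7 genes and -0.03 over all genes tested. Comparisons that share a group are not independent of each other, since the same libraries enter both.

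**Figure D3:**
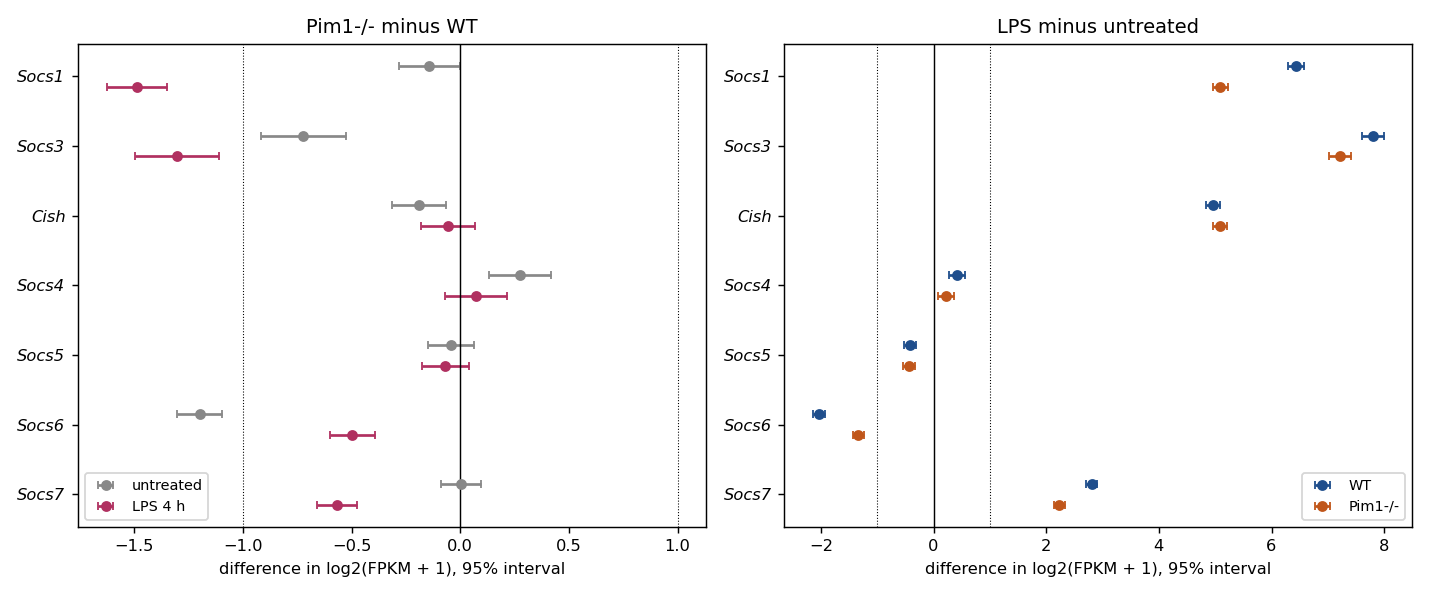
Differences in log2(FPKM + 1) with 95% intervals for the 7 tested SOCS genes, Pim1-/- minus WT on the left (untreated and LPS 4 h) and LPS minus untreated on the right (WT and Pim1-/-), with dotted lines at 2-fold. After LPS the intervals of Socs1 and Socs3 lie beyond 2-fold and that of Cish spans 0.

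Scaling moved levels between the untreated and LPS groups. The deposited FPKM of a library summed to 452511 to 489710 untreated and to 713307 to 849323 after LPS, and rescaling to a fixed sum put the median gene at -0.71 in the WT and -0.62 in the Pim1-/- LPS response (0.00 and -0.01 as deposited) and at 0.13 in the genotype difference after LPS (-0.03 as deposited). With that rescaling, 61.8% of the genes called after LPS were higher in Pim1-/- cells, against 40.5% as deposited. The genotype differences after LPS of Socs1 stayed between -1.54 and -1.10 over 22 alternatives and those of Socs3 between -1.34 and -1.10, and both were called in all of them. Those of Cish lay between -0.11 and 0.16.

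The genes that signal into the SOCS family were read from lists of its pathway. Of 20 cytokine ligands, 12 were tested, and LPS raised 11 in WT and 12 in Pim1-/- cells. Over all genes, 20.1% were called higher in WT and 14.6% in Pim1-/- cells. Only 4 of the 20 had a mean of at least 1 FPKM in either untreated group. Most tested ligands, Il6, Il12b, Csf2 and Il27 among them, passed the filter only through LPS-treated libraries, so their rise was built in. The largest WT rises were those of Il6, a gp130 cytokine that reached 1278 ± 38.9 FPKM, and Il12b, at 1013 ± 29.6. After LPS 1 ligand was higher in Pim1-/- cells and 3 were lower, against 8.66% of all genes called and 5.15% called lower. Csf2, which encodes the STAT5-activating cytokine GM-CSF, was at 21.5 ± 1.69 FPKM in Pim1-/- and 1.31 ± 0.566 in WT cells (difference 3.31 ± 0.12, adjusted p = 1.7e-12). Its WT libraries, at 1.22, 1.91 and 0.790 FPKM after LPS, would not have met the filter alone. Csf2 thus passed only through the LPS-treated Pim1-/- libraries, where it was high, and its call as higher was favoured by the filter. Ebi3 and Il27, the subunits of IL-27, were at 219.6 ± 13.6 against 545.8 ± 14.9 FPKM and at 480.0 ± 12.6 against 1064 ± 38.9, differences of -1.31 and -1.15. That of Ebi3 fell under 2-fold with quantile normalization (-0.97) and that of Il27 with a fixed sum (-0.94).

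Of 25 cytokine receptor genes 19 were tested, and after LPS the 5 that were called were all lower in Pim1-/- cells. Over all genes, 8.66% were called after LPS and 5.15% were called lower. Il4ra, the IL-4 receptor chain that activates STAT6, was at 12.8 ± 0.554 FPKM against 112.8 ± 2.82 in WT, a difference of -3.05 ± 0.05 (adjusted p = 9.4e-16). Csf3r, the G-CSF receptor and a known SOCS3 target, was at 6.16 ± 0.402 against 46.2 ± 0.647, a difference of -2.72 ± 0.06. Untreated, 8 of the 19 were called, again all lower in Pim1-/- cells, against 7.78% of all genes called and 3.37% called lower. Lifr, among these, was at 0.204 to 0.616 FPKM in Pim1-/- libraries and passed the filter only through WT libraries, so its call was favoured by the filter. The median difference after LPS was -0.61 over the list.

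All 4 Janus kinase genes rose with LPS in WT and 2 of them, Jak2 and Tyk2, did in Pim1-/- cells by more than 2-fold. Over all genes, 20.1% were called higher with LPS in WT and 14.6% in Pim1-/- cells. Jak2, the kinase of the GM-CSF and interferon-gamma receptors, went from 7.48 ± 0.211 to 316.0 ± 9.07 FPKM in WT and from 7.32 to 176.0 ± 5.37 in Pim1-/- cells. After LPS Jak1 and Jak3 were lower in Pim1-/- cells past 2-fold, by -1.30 ± 0.04 and -1.48 ± 0.07, and Jak1 differed by -0.93 with quantile normalization. The share of all genes called lower after LPS was 5.15%. With a fixed sum the WT rises of Jak1, Jak3 and Tyk2 were 0.97, 0.37 and 0.80, under 2-fold. The differences of Jak2 and Tyk2 were -0.84 and -0.37.

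Of 6 STAT genes analysed, 4 rose with LPS in WT and 3 in Pim1-/- cells, and 2 were lower in Pim1-/- cells after LPS. The matching shares of all genes called were 20.1%, 14.6% and 5.15%. Stat3, the factor downstream of gp130, was at 40.7 ± 3.57 FPKM in Pim1-/- and 129.0 ± 0.456 in WT cells, a difference of -1.64 ± 0.06 (adjusted p = 2.4e-12). Stat2, part of the interferon-activated complex, was at 88.4 ± 5.46 against 183.1 ± 4.87, a difference of -1.04 that fell under 2-fold with either quantile normalization or a fixed sum. The others differed by -0.85 (Stat5b), -0.81 (Stat5a), -0.05 (Stat6) and 0.57 (Stat4).

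Known targets of STAT3 other than the SOCS genes were mostly lower after LPS in Pim1-/- cells. Of 10 tested, 8 were called lower, against 5.15% of all genes. Their median was -1.34 against -0.03 over all genes. Il1rn, the interleukin-1 receptor antagonist, was at 179.9 ± 7.40 against 710.1 ± 13.3 FPKM, a difference of -1.98, and Il4ra is in this list as well. The list of 10 STAT5 targets holds Pim1 itself, the gene that carries the deletion. Of the other 9, 3 were lower and 1 higher after LPS, with a median of -0.06, where 8.66% of all genes were called in either direction. Il2ra, 1 of those called lower, was at 1.41 to 1.67 FPKM in LPS-treated WT and 0.0934 to 0.149 in LPS-treated Pim1-/- libraries. It passed the filter only through the LPS-treated WT libraries, so its call was favoured by the filter. Bcl6, a transcriptional repressor, differed by -1.76, whereas Id1, an inhibitor of helix-loop-helix factors, differed by 1.16, or by 0.998 with quantile normalization.

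**Figure D4:**
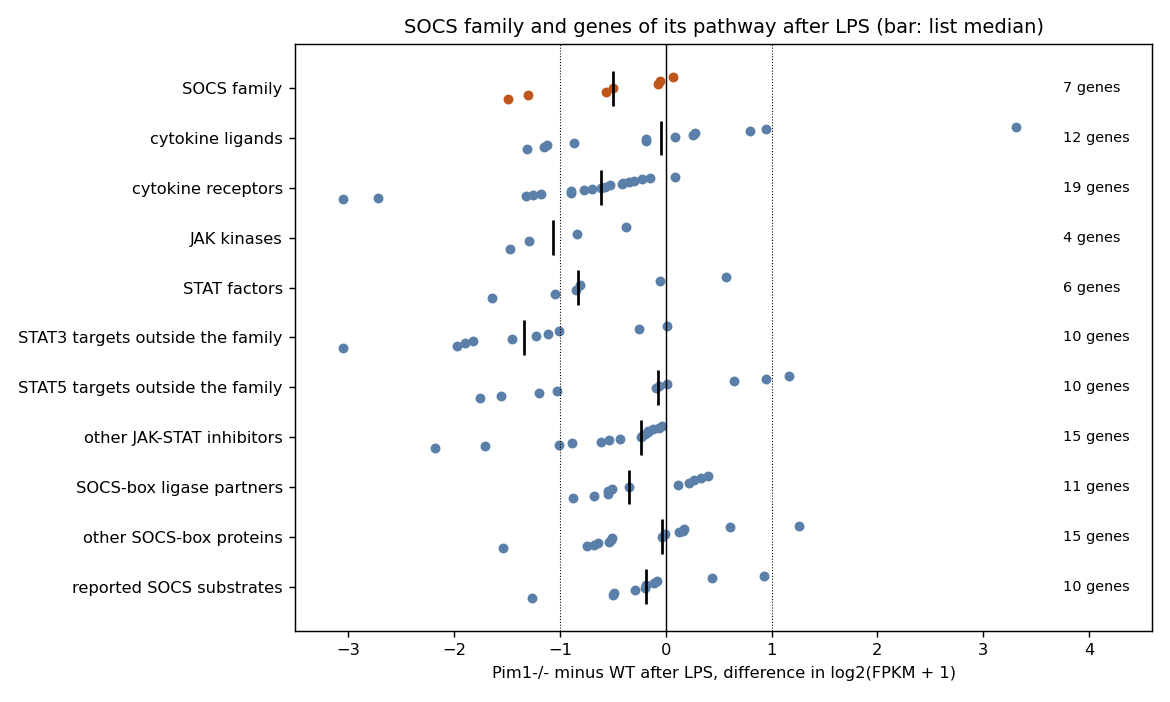
Pim1-/- minus WT after LPS in log2(FPKM + 1) for each tested gene of the SOCS family and of 10 pathway lists, with a bar at the median of each list and dotted lines at 2-fold. STAT3 targets have the lowest median, -1.34, and STAT5 targets, with Pim1 among them, lie on both sides of 0 with a median of -0.07.

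Other inhibitors of the pathway were 15 tested genes, of which 3 were called lower in Pim1-/- cells after LPS, against 5.15% of all genes. Ptpn1, the phosphatase PTP1B, was at 16.6 ± 0.932 against 78.8 ± 1.47 FPKM (difference -2.18) and Dusp2, a MAP kinase phosphatase, at 98.8 ± 2.08 against 325.6 ± 15.2 (difference -1.71). Usp18, which blocks JAK1 at the interferon receptor, rose by 7.54 with LPS in WT and by 8.03 in Pim1-/- cells.

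The partners that turn a SOCS box into a ubiquitin ligase gave no genotype call among 11 tested genes, either untreated or after LPS, while at an unadjusted p under 0.05 with no fold threshold limma gave 7 and 5 higher and 2 and 6 lower. At that threshold 76.2% of all genes passed untreated and 78.6% after LPS, so these counts say little about the list. LPS raised 5 of the 11 in WT and 2 in Pim1-/- cells, where 20.1% and 14.6% of all genes were called higher. Ube2f, a NEDD8-conjugating enzyme, was up by 2.57 and Cul2, a cullin, up by 2.34 in WT. Among 15 tested genes of other SOCS-box proteins, Spsb1 was lower after LPS, at 5.62 ± 0.482 against 18.2 ± 0.204 FPKM (difference -1.54), and Klhdc2 was higher, by 1.26. Of 10 tested genes for proteins named as SOCS substrates, 1 was lower after LPS, Vav1, a guanine nucleotide exchange factor, by -1.26, or by -0.96 with quantile normalization. Beside these lists, 8.66% of all genes were called by genotype after LPS, and 5.15% were called lower.

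The genes whose pattern over the 12 libraries was most like that of a member were found by Pearson's r on log2(FPKM + 1), given with no test because the libraries share 4 groups. For Socs1 they were Papd7 (r = 0.9999) and Adora2a, an adenosine receptor gene (0.9996). For Socs3 they were Il4i1 (0.9995) and Tgtp2 (0.9994), and for Cish Apol9b (0.9996) and Oasl1 (0.9994). Socs7 was closest to Edn1, which encodes endothelin-1 (0.9999), and to Adora2a (0.9998). Socs6 was closest to Slc37a2 (0.9975) and Enc1 (0.9971), Socs5 to Akap8 (0.9879) and Pcp4l1 (0.9865), and Socs4 to Thoc1 (0.9616) and Stt3a (0.9613). Adora2a is shared by Socs1 and Socs7, and it went from 0.0920 to 81.4 FPKM with LPS in WT and from 0.0509 to 32.5 in Pim1-/- cells.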

How the data were processed

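The 8 genes, the pathway and marker lists and the tests were chosen with earlier results of these data known. TruSeq stranded mRNA libraries were run on a NovaSeq instrument. Per the submitters' processing notes the authors used bcl2fastq 2.20.0.422, cutadapt 1.18, TopHat2 2.0.13 and Cuffdiff 2.2.1 with mm10, while the methods text names a rat build. The symbols are mouse. The authors deposited 1 value per gene and library, read here as FPKM because Cuffdiff was used. Neither the annotation nor the library normalization is given in the sources used here, and depth was estimated from the steps between low values.

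FPKM were tested as log2(FPKM + 1) with limma 3.58.1 (R 4.3.3), with a trend, over 4 group means of all 12 libraries. Genes needed 1 FPKM in 3 libraries, which left 10581. A gene was called at over 2-fold, p under 0.05 and false discovery rate under 0.1, after the study's methods. A fold on this scale understates the change of low genes. The fit was tested on simulated data. Ratios were tested with exact permutation (scipy 1.17.1).

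Named genes were the members, Pim1, up to 2 called genes per direction in each pathway list and comparison, every gene of lists of at most 7 genes, and the 2 genes most like each tested member. Elongin genes and Adgre1 were matched by older symbols, and Ly6g was not matched. Of the pathway lists, 1 gene is not reported here. Alternatives were another pseudocount, filter, scaling, threshold or fit, a replicate block, and leaving out each library.

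The labels do not say what a replicate number marks. Over 3646 genes at 10 FPKM or more, same-numbered libraries deviated together between untreated WT and Pim1-/- (r = 0.33, 0.37 and 0.46) and between untreated and LPS-treated Pim1-/- (0.43, 0.54 and 0.68), so the number pairs these groups by the values alone. In each of the other group pairs at least 1 correlation was 0.1 or less. Promoters were taken from RefSeq (GRCm38.p6), where Socs1, Socs3, Socs4 and Cish had an entry, and gene positions from GENCODE M21.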

Additional observations from a re-analysis of the deposited data

Results flagged for a closer look

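For 4 members the response to LPS differed between genotypes by the interaction term of the limma fit, Pim1-/- response minus WT response in log2(FPKM + 1). The difference was -1.35 for Socs1 and -0.58 for Socs3, the genes of the JAK-inhibiting members, and -0.57 for Socs7, which all rose less in Pim1-/- cells. It was 0.70 for Socs6, which fell less there. Only the difference of Socs1 passed 2-fold. With a pseudocount of 0.1 that of Socs3 was -0.36 (limma adjusted p = 0.056). At a false discovery rate under 0.05 with no fold threshold such a difference was called for 62.9% of all 10581 genes. Groups of 3 libraries were too small to test for outlying libraries.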

How the results depend on the processing

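Over 763 alternative values of the 35 member results, 746 were counted as the same, 1 lost its call, 14 gained one and 2 reversed. Those counted as the same include changes of sign in small uncalled differences. Examples are the genotype differences after LPS of Cish (-0.06 as reported, up to 0.16) and Socs5 (-0.07, up to 0.11). Of the 14, 12 came from dropping the fold threshold, with values unchanged and under 2-fold, and 2 were the LPS responses of Socs5 with a fixed sum. The 2 reversals were the LPS responses of Socs4 after rescaling to a fixed sum, -0.27 in WT and -0.37 in Pim1-/- cells. The 1 loss was the Socs1 difference in response, -0.96 with quantile normalization, which left 0 of 7 members called for that comparison (706 of all genes as reported, 717 with that normalization). At an adjusted p under 0.05 with no fold threshold, 4 members were called after LPS, 4 untreated and 4 for the difference in response. Genes called overall then numbered 8194 after LPS (916 as reported), 7904 untreated (823), 9453 and 8954 for the LPS responses of WT and Pim1-/- cells (3686 and 2649), and 6657 for the difference in response. A pseudocount of 0.1 gave 1442 genes after LPS and 1075 for the difference in response. Rescaling to a fixed sum gave 4233 genes for the Pim1-/- LPS response, and its genes called higher were 22.8% in the WT and 24.4% in the Pim1-/- LPS response (57.8% and 58.4% as reported) and 49.4% of the difference in response (33.6%). With quantile normalization the share was 47.6% for the WT LPS response. Among 2948 alternative values of 136 results for Pim1 and named pathway genes, 2875 were counted as the same in that way. The call was lost in 32 (15 with quantile normalization and 11 with a fixed sum) and gained in 37 (29 with no fold threshold). The other 4 reversed: with a fixed sum, the Pim1-/- LPS responses of Jak3 (-0.0196) and Stat4 (-0.13), and with quantile normalization the difference in response of Stat5a (0.0618) and Pim1 (0.21). The cause was not tested. Leaving out any 1 library changed no member's call.

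With the replicate number as a block, 2 members were called after LPS, 1 untreated, 5 for each LPS response and 1 for the difference in response, as without it. It moved 1 member across an adjusted p of 0.05, Socs1 untreated (adjusted p = 0.030 with the block). Members under 1 FPKM in a group rest on few fragments, and their differences on the log2 scale depend on the pseudocount.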
